A study of Mus musculus with 8 samples.

Results

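Autophagy delivers cytoplasmic cargo to the lysosome inside a double membrane, the autophagosome. Atg8 proteins, the LC3 and GABARAP families, are conjugated to lipid on that membrane, and receptors such as p62 and NBR1 bind both ubiquitinated cargo and the Atg8 proteins on it. Beclin 1 belongs to the lipid kinase complex that makes the phosphoinositide PI3P, WIPI proteins bind that lipid, and ATG5 takes part in the conjugation itself. Cells can raise the transcription of several of these genes under starvation or stress, and the p62 and LC3 proteins are themselves consumed by the process, so that an mRNA level is not a measure of how much autophagy takes place.

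The mRNA of 10 such genes was followed here: the receptor genes Sqstm1 (p62) and Nbr1, 5 genes of the Atg8 family (Map1lc3a, Map1lc3b, Gabarap, Gabarapl1 and Gabarapl2), the PI3P-binding gene Wipi1, Becn1 (Beclin 1) and Atg5. They are the probe sets whose single gene symbol in the platform annotation is one of these names, 29 probe sets in all, out of 18194 genes named on the array. All 10 genes passed the filter on low signal, which 14267 genes passed.

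The cells were mouse embryonic stem cells, strain 129X1 x 129S1. Lines carrying a short hairpin against Top1 (shTop1) or against p53 (shp53) were combined with mock cells, 1 part of knockdown to 4 parts of mock. In a coculture the 2 kinds of cell shared a dish for 4 days under standard stem cell conditions. In a mix, which the labels call the control, each kind was grown by itself for 4 days and the RNA was then pooled at the same 1:4. With 2 hairpins and 2 ways of combining the cells there were 4 groups of 2 arrays: the mix and the coculture with shTop1, and the mix and the coculture with shp53. Every group thus holds knockdown and mock RNA, and none holds mock RNA alone. Coculture against mix therefore sets living together against growing apart. Any change in the share of knockdown cells over the 4 days enters it as well, as only the mix was pooled at a fixed 1:4. The labels call the 2 arrays of a group biological replicates without saying what separates them, so the p-values rest on a spread that may be technical. How many clones stood behind each line, and what share of a coculture was still knockdown cells on the last day, is not stated in the labels.

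Mean signal was 812 to 896 per array. Markers of embryonic stem cells were bright, with 8 of 8 at or above the 93.1 percentile of all probe sets. On the second principal component, with 16.9% of the variance, shTop1 coculture replicate 1 stood at 32.6 and the other arrays between -15.5 and 3.63. Top1, the target of one hairpin, had signals of 5110 and 5316 in the shTop1 mix, 5281 and 5283 in the shTop1 coculture, 5456 and 5682 in the shp53 mix, and 5572 and 5886 in the shp53 coculture. Over both conditions its log2 difference, shTop1 minus shp53, was -0.11 (two-sided exact permutation p = 0.0286, n = 4 each, the smallest p this design allows), where knockdown RNA makes up 20% of a mix. That is its brightest probe set, and its dimmer ones had the other sign, 0.15 for 1438495_at and 0.39 for 1457573_at (two-sided exact permutation p = 0.571 and 0.343, n = 4 each). The gene for p53 was not analysed here.

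The promoters of Sqstm1, Gabarap and Gabarapl1 are shown first because these are the genes on which the coculture comparison turns. Each window holds the 250 bases before the gene's start in RefSeq (GRCm38.p6), read 5′ to 3′ on the gene's strand, and the capitals mark GC boxes, GGGCGG on either strand, which bind Sp1-type factors.
Sqstm1, chr11:50210821-50211070, minus strand: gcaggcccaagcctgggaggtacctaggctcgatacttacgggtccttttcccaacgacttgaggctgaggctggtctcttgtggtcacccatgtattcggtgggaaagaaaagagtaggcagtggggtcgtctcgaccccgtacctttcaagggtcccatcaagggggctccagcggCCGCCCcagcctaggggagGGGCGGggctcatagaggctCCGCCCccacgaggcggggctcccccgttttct
Gabarapl1, chr6:129532942-129533191, plus strand: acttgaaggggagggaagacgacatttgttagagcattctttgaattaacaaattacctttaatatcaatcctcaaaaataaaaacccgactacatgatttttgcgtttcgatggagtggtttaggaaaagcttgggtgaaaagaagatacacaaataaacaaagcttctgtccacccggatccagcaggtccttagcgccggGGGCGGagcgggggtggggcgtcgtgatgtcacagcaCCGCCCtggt
Gabarap, chr11:69991120-69991369, plus strand: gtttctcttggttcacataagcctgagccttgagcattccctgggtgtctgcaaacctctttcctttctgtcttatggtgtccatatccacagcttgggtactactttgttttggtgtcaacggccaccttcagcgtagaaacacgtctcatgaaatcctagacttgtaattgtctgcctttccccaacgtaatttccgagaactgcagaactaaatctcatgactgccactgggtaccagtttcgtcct

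Promoter windows were at hand for 8 of the 10 genes. A GC box lay in those of 6 genes, Gabarapl1, Gabarapl2, Map1lc3b, Atg5, Sqstm1 and Wipi1, against 32.7% of all 32851 windows, and Gabarap and Nbr1 had none. The window of Sqstm1 has a G and C content of 63.2%, that of Gabarapl1 46.8% and that of Gabarap 46.4%. The E-box CACGTG, which reads the same on both strands, lay in the window of Atg5 alone, against 6.02% of all windows. Its longer form TCACGTGA, the core of the element bound by TFEB, a regulator of lysosomal and autophagy genes, lay in none of the 8 and in 0.785% of all windows. The letters TGACNNNGC, the core of the antioxidant response element bound by NRF2, were searched on both strands and lay in none of the 8 and in 10.2% of all windows. These are matches of letters in a short window, and sites farther out were not searched.

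Over both knockdowns, cocultures had more Sqstm1, Gabarapl1 and Gabarap signal than mixes, with ratios of 1.12 to 1.27, and none of the 10 genes passed the test over all genes. In the fit of all 8 arrays (limma, Benjamini-Hochberg adjusted over 14267 genes, threshold 0.05) the members' adjusted p ran from 0.356 to 0.982. The test called 0% of all genes in this comparison, with a smallest adjusted p of 0.279, so the members share this result with the whole array. At an unadjusted p under 0.05, 3 of the 10 members were higher and 0 lower, where 7.09% of all genes were higher and 4.63% lower. Within 1 knockdown, Sqstm1 was the 1 member higher at an unadjusted p under 0.05 with shTop1, where 5.12% of all genes were, and Gabarapl1 with shp53, where 3.87% were. Each knockdown by itself had 0% of all genes called. Of the 10, 7 lay above 0 against 55.3% of all genes, and their median log2 difference was 0.11 against 0.022 for all genes. All 4 cocultures were above all 4 mixes for 2 of the 10, Sqstm1 and Gabarap, and below them for 0, where 5.75% and 3.35% of all genes were. Within both knockdowns at once the cocultures were above the mixes for 3 of the 10, these and Gabarapl1, and below them for 0, where 8.81% and 5.72% of all genes were. Without shTop1 mix replicate 2, 0 members had an unadjusted p under 0.05, and without any other single array 2 or 3 did. With each array's median set equal in place of quantile normalization, the median of all genes was 0.068, and the higher share of genes at an unadjusted p under 0.05 went from 60.5% to 72.4%. With the authors' scaling alone these were 0.011 and 51.6%.

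**Figure D1:**
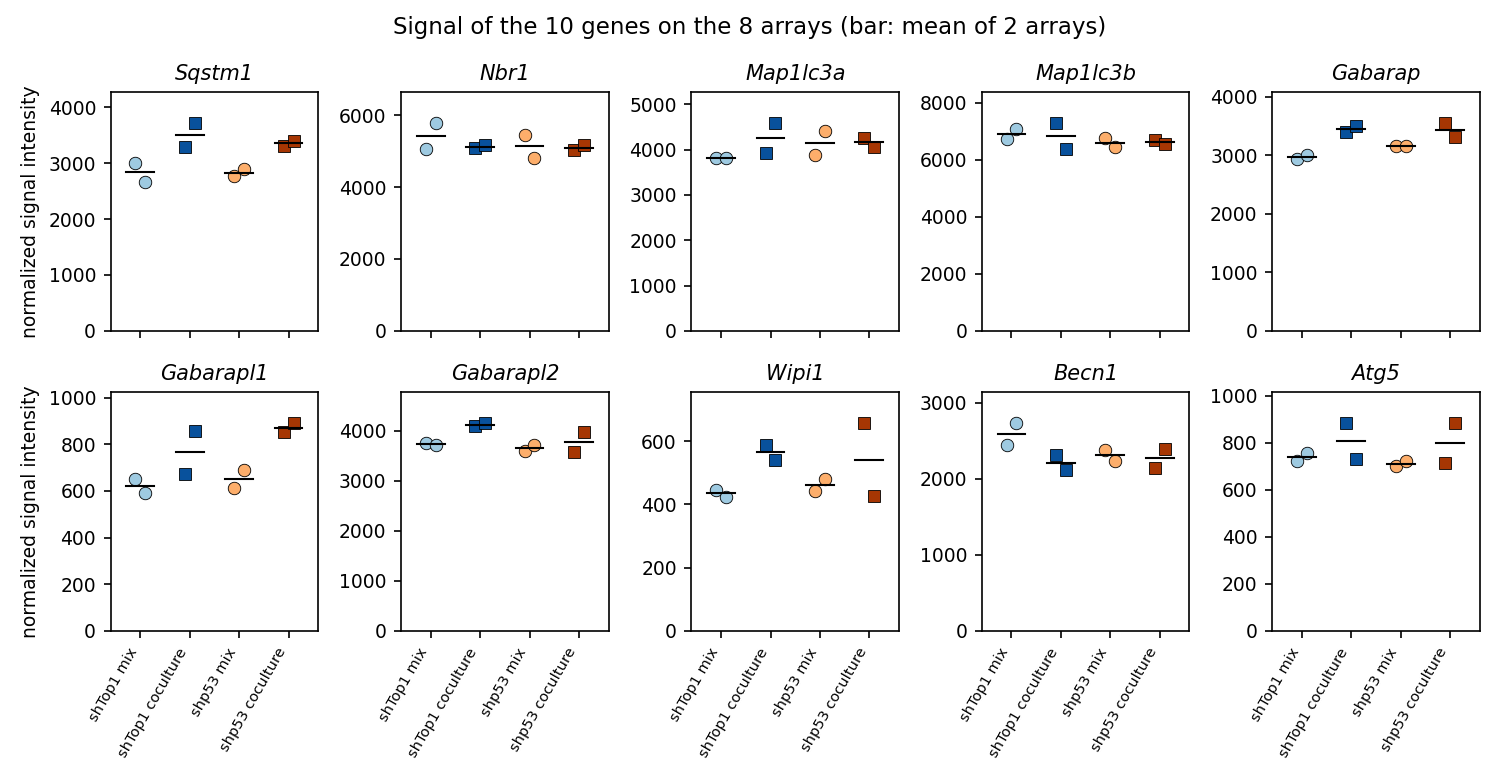
Normalized signal intensity (vertical axes, from 0) of the brightest probe set of each of the 10 genes on the 8 arrays, by group, with circles for mixes, squares for cocultures and bars for the mean of 2 arrays. For Sqstm1 the 4 cocultures (3297 to 3717) lie above the 4 mixes (2668 to 3002), and for Nbr1 the groups overlap.

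Sqstm1 encodes p62, the receptor that gathers ubiquitinated cargo and is itself degraded with it. Its signal was 3002 and 2668 in the shTop1 mix and 2773 and 2889 in the shp53 mix. In coculture it was 3297 and 3717 with shTop1 and 3316 and 3402 with shp53. Every coculture array stood above every mix array. The log2 difference was 0.28 ± 0.08 (SE), a ratio of 1.21 on the signal plus 16 scale (limma adjusted p = 0.356, two-sided exact permutation p = 0.0286, n = 4 each), which is rank 539 by p among the 14267 genes. Within the knockdowns it was 0.31 ± 0.11 with shTop1 and 0.25 ± 0.11 with shp53 (limma adjusted p = 0.605 and 0.748). A dim second probe set of Sqstm1, at the 46.9 percentile, overlapped between groups (52.9 to 59.0 in the mixes and 25.0 to 71.3 in the cocultures) and had the other sign, with a log2 difference of -0.11 ± 0.18 (SE, limma adjusted p = 0.840 with every probe set tested by itself), or -0.42 ± 0.25 with shTop1. With the average of both probe sets in place of the brightest, the value for Sqstm1 was 0.08, and with shTop1 it was -0.056.

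Nbr1 encodes the other receptor, which shares with p62 a ubiquitin-binding and an Atg8-binding part. Its signal was 5055 and 5778 in the shTop1 mix, 5453 and 4808 in the shp53 mix, 5075 and 5158 in the shTop1 coculture, and 5032 and 5169 in the shp53 coculture. The cocultures lay inside the range of the mixes, and the log2 difference was -0.04 ± 0.08 (SE), with a 95% interval from -0.24 to 0.16 (limma adjusted p = 0.866), and with median centring it was 0.03. The second Nbr1 probe set, at the 78.5 percentile, also overlapped between mixes and cocultures and had the other sign, at 0.05 ± 0.10 (SE). It had 0.20 ± 0.14 with shTop1 and -0.10 ± 0.14 with shp53.

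Members of the GABARAP branch of the Atg8 family act late, in closing and fusing the autophagosome. Gabarapl1, of this branch, had the largest difference of the 10 brightest probe sets in the mean of both knockdowns. With shTop1 alone those of Wipi1 and Sqstm1 were larger. The signal of Gabarapl1 was 650 and 592 in the shTop1 mix and 611 and 691 in the shp53 mix. In coculture it was 674 and 857 with shTop1 and 851 and 890 with shp53. The cocultures were higher within each knockdown, but shTop1 coculture replicate 1 lay below the highest mix. The log2 difference was 0.35 ± 0.10 (SE), a ratio of 1.27 (limma adjusted p = 0.357, two-sided exact permutation p = 0.0571, n = 4 each). It was 0.29 ± 0.15 with shTop1 and 0.41 ± 0.15 with shp53 (limma adjusted p = 0.655 and 0.717). Without shTop1 coculture replicate 1 the shTop1 value was 0.46, and without replicate 2 it was 0.12. The second Gabarapl1 probe set was higher in all 4 cocultures (457 to 516) than in the 4 mixes (364 to 439), with a log2 difference of 0.24 ± 0.09 (SE, limma adjusted p = 0.446 with every probe set tested by itself). The first carries the platform's _s_at mark, for probes that may be shared with other transcripts, so its signal could include a related gene. The brightest probe sets of Wipi1 and Becn1 carry the same mark.

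Gabarap, the founding member of that branch, had signals of 2933 and 3000.5 in the shTop1 mix and 3164 and 3149 in the shp53 mix. In coculture they were 3391 and 3493 with shTop1 and 3547 and 3316 with shp53. As with Sqstm1, all 4 cocultures stood above all 4 mixes, and the log2 difference was 0.17 ± 0.07 (SE), a ratio of 1.12 (limma adjusted p = 0.414, two-sided exact permutation p = 0.0286, n = 4 each), with 0.21 ± 0.09 for shTop1 and 0.12 ± 0.09 for shp53 (limma adjusted p = 0.611 and 0.808). Gabarapl2, also called GATE-16, had signals of 3762 and 3725 in the shTop1 mix, 3598 and 3728 in the shp53 mix, 4090 and 4153 in the shTop1 coculture, and 3580 and 3980 in the shp53 coculture. Its cocultures were higher with shTop1 and overlapped the mixes with shp53, and the log2 difference was 0.09 ± 0.07 (SE, limma adjusted p = 0.635).

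In the LC3 branch, which lengthens the autophagosome membrane, the brightest probe sets showed little difference. Map1lc3b, the gene of the LC3 form most used as an autophagosome marker, had signals of 6740 and 7064 in the shTop1 mix, 6765 and 6446 in the shp53 mix, 7286 and 6379 in the shTop1 coculture, and 6710 and 6548 in the shp53 coculture. The groups overlapped, and the log2 difference was -0.01 ± 0.08 (SE, 95% interval -0.19 to 0.18, limma adjusted p = 0.982), with a sign that turned under both other scalings (0.07 and 0.02). Another probe set of the same gene, 1415929_at, lay between 1884 and 2099 in the cocultures and between 1623 and 1867 in the mixes. That is a log2 difference of 0.20 ± 0.08 (SE, limma adjusted p = 0.459 with every probe set tested by itself, two-sided exact permutation p = 0.0286, n = 4 each), so the probe sets of Map1lc3b disagree. A further bright one, 1415928_a_at, had a log2 difference of 0.01 and overlapped.

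Map1lc3a, the other LC3 gene, had signals of 3812 and 3817 in the shTop1 mix, 3871 and 4412 in the shp53 mix, 3924 and 4583 in the shTop1 coculture, and 4265 and 4053 in the shp53 coculture. The groups overlapped, with a log2 difference of 0.08 ± 0.09 (SE, limma adjusted p = 0.737). The platform marks this probe set _x_at, for probes that may bind other sequences. Its second probe set gave 604 to 715 in the cocultures and 590 to 600 in the mixes, which do not overlap, and a log2 difference of 0.14 ± 0.10 (SE, limma adjusted p = 0.626 with every probe set tested by itself).

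**Figure D2:**
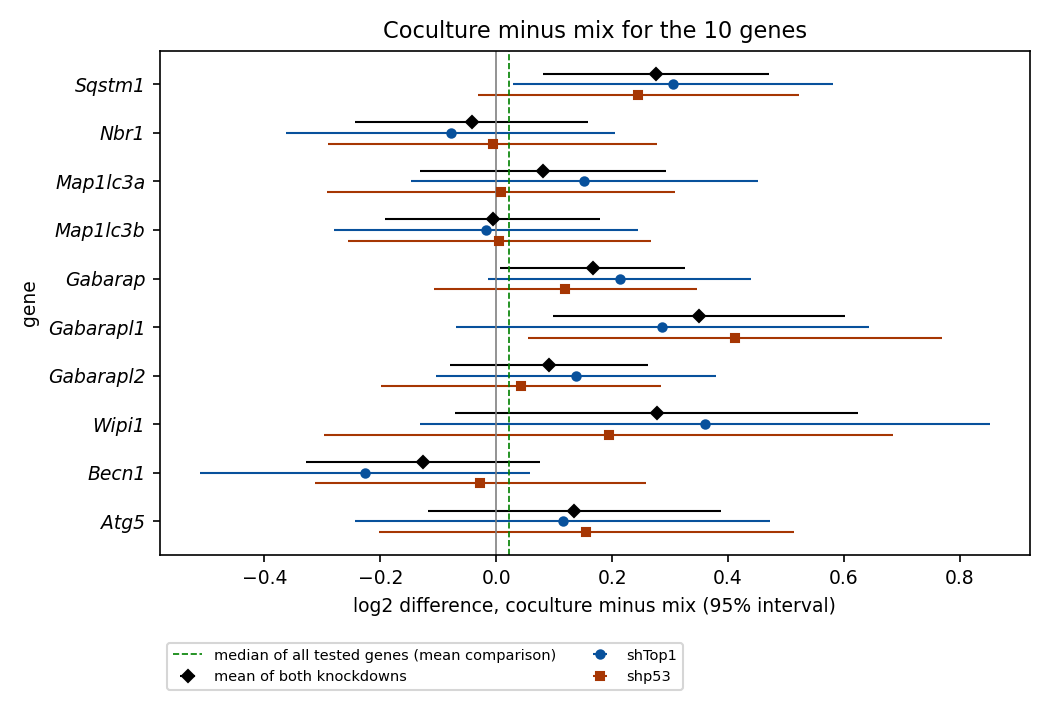
Log2 difference, coculture minus mix (horizontal axis), of the 10 genes with 95% intervals, for the mean of both knockdowns (diamonds), shTop1 (circles) and shp53 (squares), with the median of all tested genes as a dashed line. For the mean, the intervals of Sqstm1 (0.08 to 0.47), Gabarap (0.01 to 0.33) and Gabarapl1 (0.10 to 0.60) lie above 0 and those of the other 7 genes include it, before any adjustment for the number of genes.

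Of the genes that act before the Atg8 proteins, Wipi1, whose protein reads the PI3P mark on the forming membrane, had signals of 447 and 425 in the shTop1 mix and 441 and 481 in the shp53 mix. In coculture they were 589 and 541 with shTop1 and 657 and 426 with shp53. The shp53 cocultures thus held the highest and almost the lowest value of the 8. The log2 difference was 0.28 ± 0.14 (SE, limma adjusted p = 0.495), with 0.36 ± 0.20 for shTop1 and 0.19 ± 0.20 for shp53 (limma adjusted p = 0.679 and 0.863). Without shp53 coculture replicate 1 the shp53 value was -0.11 and without replicate 2 it was 0.50. Of its 6 probe sets 5 lay above 0, and a dim one, 1424917_a_at, did not overlap between mixes (82.8 to 138) and cocultures (139 to 225), by a narrow margin.

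Becn1, the scaffold of the lipid kinase complex, lay on the other side. Its signal was 2447 and 2728 in the shTop1 mix, 2379 and 2238 in the shp53 mix, 2307 and 2110 in the shTop1 coculture, and 2140.5 and 2393 in the shp53 coculture. With shTop1 both cocultures were below both mixes, and with shp53 the groups overlapped. Over both, the log2 difference was -0.13 ± 0.08 (SE, limma adjusted p = 0.577), with -0.23 ± 0.12 for shTop1 and -0.03 ± 0.12 for shp53 (limma adjusted p = 0.661 and 0.975). The other bright probe set had -0.05. A dim one, 1437006_x_at, had 0.37 ± 0.10 (SE, limma adjusted p = 0.399 with every probe set tested by itself). It carries the _x_at mark, for probes that may bind other sequences. The sign for Becn1 thus depends on the probe set, and the mean of all 5 gave 0.09.

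Atg5, whose protein joins ATG12 in the enzyme that lipidates the Atg8 proteins, had signals of 723 and 757 in the shTop1 mix, 701 and 722 in the shp53 mix, 883 and 730 in the shTop1 coculture, and 714 and 883 in the shp53 coculture. In each coculture 1 array was high and the other lay among the mixes. The log2 difference was 0.14 ± 0.10 (SE, limma adjusted p = 0.633).

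Counted over all 29 probe sets, 20 lay above 0, where 51.7% of all 26118 probe sets tested this way did. In 6 of them, each of a different gene, all cocultures were above all mixes, and in 0 the reverse held. Of all probe sets, 4.61% were separated upwards and 3.46% downwards. The 6 belonged to Sqstm1, Gabarap, Gabarapl1, Map1lc3a, Map1lc3b and Wipi1, and for only the first 2 genes was it the brightest probe set. With every probe set tested by itself limma called 0 of the 29 and 0% of all.

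**Figure D3:**
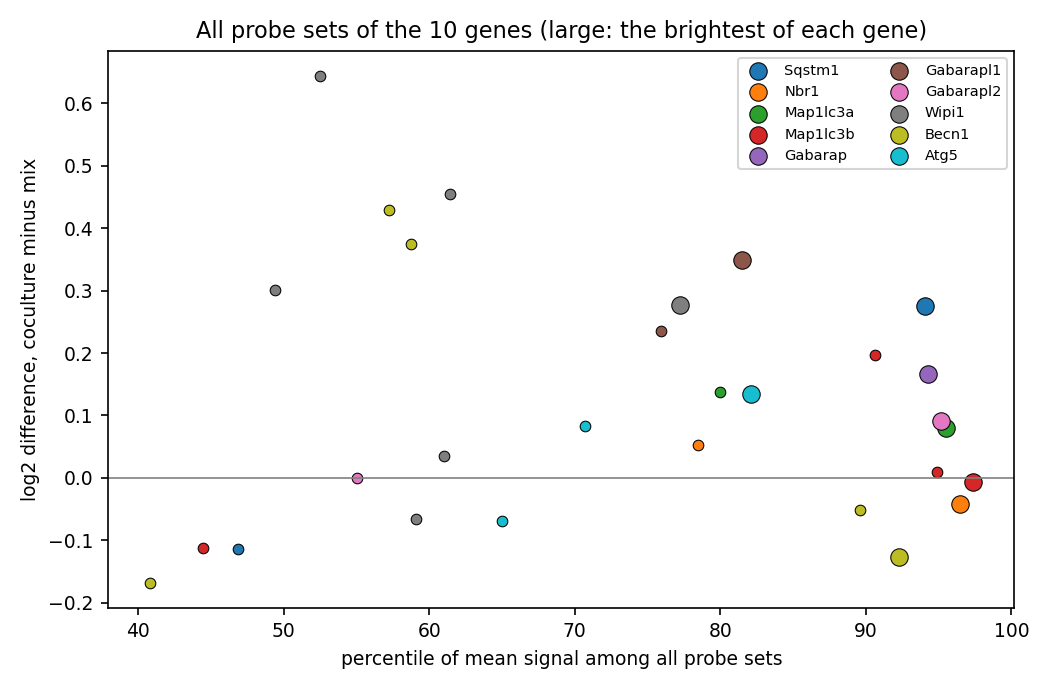
Log2 difference, coculture minus mix (vertical axis), of the 29 probe sets of the 10 genes against the percentile of their mean signal among all probe sets (horizontal axis), with large points for the brightest probe set of each gene. The highest point is a Wipi1 probe set at the 52.5 percentile (0.64), and the brightest probe sets of the genes lie between -0.13 and 0.35.

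The coculture effects of the 2 knockdowns were set against each other in the same fit. For the 10 members the log2 difference of the effects, shTop1 minus shp53, ran from -0.20 (Becn1) to 0.17 (Wipi1), with unadjusted p from 0.275 to 0.886 and limma adjusted p of 1.00 throughout, where limma called 0% of all genes and 4.30% of all genes had an unadjusted p under 0.05. The 95% interval was narrowest for Gabarap, from -0.23 to 0.41, and widest for Wipi1, from -0.53 to 0.86, so how large a difference between the knockdowns could have gone unseen depends on the gene. Set against each other over both conditions, shTop1 minus shp53 ran from -0.13 (Gabarapl1) to 0.08 (Gabarapl2), with limma adjusted p of 0.999 for all 10 and two-sided exact permutation p from 0.200 to 0.943 (n = 4 each). On the brightest probe sets 0 members had an unadjusted p under 0.05 in this comparison, against 4.70% of all genes, of which limma called 0%. Over all 29 probe sets there was 1, against 4.82% of all probe sets, of which limma called 0%: the dim Becn1 probe set 1437006_x_at. Its signal was 62.3 to 113 in the 4 shTop1 arrays and 124 to 156 in the 4 shp53 arrays, which do not overlap, with a log2 difference of -0.60 ± 0.10 (SE, limma adjusted p = 0.645, two-sided exact permutation p = 0.0286, n = 4 each). The bright Becn1 probe sets 1455880_s_at and 1460320_at had 0.06 and -0.06 in this comparison.

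The other genes of the pathway were taken as 8 lists of 62 genes, of which 59 were tested. In the mean coculture comparison 37 of these lay above 0, against 55.3% of all genes, with a median log2 difference of 0.025. None was called by limma. At an unadjusted p under 0.05, 4 were higher and 1 lower, where 7.09% of all genes were higher and 4.63% lower, so the higher ones made up about the background share. The genes for PI3P binding, lipid transfer and Atg9, which supply membrane, all lay above 0 (9 of 9, median 0.12). Those with the smallest p were Atg9b, a relative of the Atg9 lipid scramblase, at 0.38 ± 0.08 (SE, limma adjusted p = 0.333), whose cocultures (136 to 169) lay above its mixes (102 to 118), and the WIPI-like gene Wdr45 at 0.19. Of the conjugation and processing enzymes 7 of 10 lay above 0 with a median of 0.013. Among them Atg12, the partner of Atg5, had 0.29 ± 0.07 (SE, limma adjusted p = 0.345), with cocultures at 1045 to 1196 and mixes at 861 to 962, and the protease gene Atg4c had 0.29 ± 0.12. So on the brightest probe sets of the pair that forms the ATG12-ATG5 conjugate, Atg12 did not overlap between the groups and Atg5 did. A dimmer Atg12 probe set, at the 71.3 percentile, did overlap, with mixes at 219 to 353 and cocultures at 290 to 364. The dimmest, at the 37.5 percentile, did not (14.9 to 32.3 and 35.7 to 68.9). The contrast thus depends on the probe set. Atg9b and Atg12 were named for their small p, and 5.75% of all genes were separated upwards in this way.

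Of the remaining 6 lists, the medians ran from -0.033 to 0.10, where that of all genes was 0.022. Among other receptors 4 of 8 were above 0 (median 0.0062), with the mitophagy receptor Bnip3, which low oxygen induces, at 0.25 ± 0.07 (SE, limma adjusted p = 0.353) and the large adaptor gene Wdfy3 at -0.23 ± 0.08 (SE, limma adjusted p = 0.391). The initiation complex had 2 of 5 above 0 (median -0.0033), with Atg13 at 0.25 and its scaffold Rb1cc1, also called FIP200, at -0.35. The lipid kinase complex had 2 of 7 above 0 (median -0.033), with Atg14 at 0.19 and Rubcn, an inhibitor, at -0.09. Fusion genes had 6 of 7 above 0 (median 0.10), with Rab7 at 0.17 and Snap29 at 0.16. Transcription regulators of autophagy had 3 of 5 above 0 (median 0.10), with Mitf at 0.18 and Tfeb at -0.14. The Nrf2 pathway, of which Sqstm1 is a known target and whose inhibitor Keap1 p62 binds, had 4 of 8 above 0 (median 0.0046), with Srxn1 at -0.17 and Keap1 at -0.19.

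**Figure D4:**
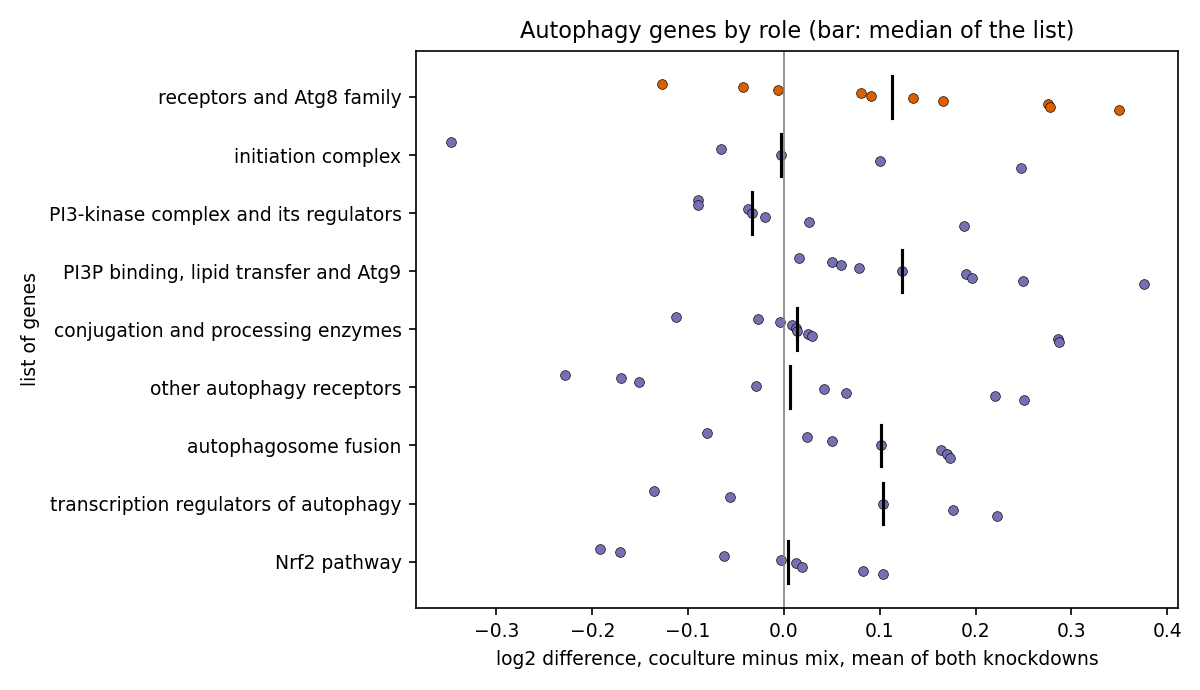
Log2 difference, coculture minus mix over both knockdowns (horizontal axis), of the 10 genes (orange) and of the tested genes of 8 other lists of the pathway (violet), with a bar for each list's median. The members' median is 0.11 and that of the PI3P binding, lipid transfer and Atg9 list 0.12, and no point in the plot passed the test over all genes.

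The genes whose pattern over the 8 arrays was most like that of Sqstm1 were Nubpl, Pi4ka, Plk3, Fry and Araf. Likeness was the root mean square difference between log2 values centred on each gene's own mean, among 12830 genes whose spread over the arrays was at least that of Sqstm1 divided by 2. The 5 genes lay between 0.033 and 0.052, where the median of the 12830 genes was 0.24. As the nearest of these they lie below that median by the way they were picked. Of the other members Gabarap came nearest, at 0.097, and Becn1 lay farthest, at 0.24. Among all 14267 tested genes, whatever their spread, 457 were closer to Sqstm1 than Gabarap and 7980 closer than Becn1.

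The summed markers of fibroblasts and primitive endoderm were higher in all cocultures than in all mixes, the latter by a narrow margin, and single markers of both overlapped. Those of trophectoderm, mesoderm and neural cells were not. In the RNA of a whole dish, fewer cells of a type and less RNA per cell cannot be told apart. The summed signal of 8 fibroblast markers with a probe set, of 9 listed, was 478 to 609 in the mixes and 649 to 727 in the cocultures. Of these, 4 were tested and all lay above 0, where 55.3% of all genes did. Col3a1, Dcn, Lum and Postn were below the filter on low signal. Their brightest probe sets overlapped between the groups, each with a lower mean log2 value in the cocultures than in the mixes. Among the tested, Col1a1 had signals of only 5.34 to 40.2 over the arrays. Pdgfrb, the brightest of the 8, overlapped too (187 to 268 in the mixes, 218 to 382 in the cocultures). That of 6 primitive endoderm markers was 10436 to 10759 in the mixes and 10773 to 12023 in the cocultures, with 6 of 6 above 0 (median log2 difference 0.10). The sums of trophectoderm (1074 to 1562 in the mixes, 1239 to 1559 in the cocultures), mesoderm (165 to 229 and 159 to 279) and neural markers (938 to 1049 and 813 to 962) overlapped. So did that of stem cell markers (110618 to 113682 and 107437 to 115191). The part of other cell types in the values of Sqstm1, Gabarap and Gabarapl1 was not tested.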

How the data were processed

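The authors deposited one linear signal intensity for each of 45101 probe sets on each of 8 Affymetrix arrays. Leaving out the highest and lowest 2%, the deposited intensities averaged about 500.003 on every array, so a scaling to that mean had been done, as read from the values. No source used here names the tool. Per array, 21.1% to 25.6% of values were under 16. The precision is set by the number of arrays.

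The platform annotation gave 1 gene symbol to 34958 probe sets and several to 932, and 9211 were not in it. Symbols were brought up to date by gene identifier. After quantile normalization, log2(value + 16) was used, which understates fold changes of dim genes. Each gene stood for its brightest probe set and was tested if the mean log2 value was at or above the 30th percentile over the array (signal 22.1). Group means of all 8 arrays were fitted with limma 3.58.1 in R 4.3.3 (eBayes without a trend, 4 residual degrees of freedom). Single genes were also compared by exact permutation in Python 3.11.15, with a smallest possible p of 0.0286. The steps were tested on simulated data.

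The members, lists and tests were chosen with earlier results of these data known. Named were all members, Top1, the 2 genes of each other list with the smallest p in the mean coculture comparison, any gene past the threshold, and the 5 most like Sqstm1. Single probe sets other than the brightest, and the members shown by promoter, were picked after their values were seen. Promoter windows are RefSeq's, without the 50 bases after the start. Alternatives were a replicate block, other scalings, filters, probe set rules, variance models and pseudocounts (1 and 64), only the groups compared, and leaving out each array.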

Additional observations from a re-analysis of the deposited data

How the results depend on the processing

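No member was called in any of the 5 comparisons under any alternative run. Over all genes limma called 0, except with trended and robust variances, where it called 31 in the mean coculture comparison, 3 with shTop1 and 1 with shp53. In the mean coculture comparison Sqstm1, Gabarap, Gabarapl1, Gabarapl2, Map1lc3a, Wipi1 and Atg5 kept their direction in all 18 alternatives, read on the brightest probe set where every probe set is tested by itself. Dimmer probe sets of 3 of these had the other sign in that alternative, Sqstm1 1444021_at (-0.11), Wipi1 1427323_s_at (-0.07) and Atg5 1418235_at (-0.07). The log2 difference of Sqstm1 was 0.08 (average of a gene's probe sets) to 0.33 (limma adjusted p 0.108 to 0.823), that of Gabarapl1 0.27 to 0.43 (0.137 to 0.643) and that of Gabarap 0.14 to 0.22 (0.235 to 0.665).

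Signs turned for members near 0. With median centring Nbr1 had 0.032 and Map1lc3b 0.073 in the mean comparison, and Becn1 0.048 with shp53. With the authors' scaling alone Map1lc3b had 0.016. With the average of a gene's probe sets, which weighs dim ones like bright ones, Nbr1 had 0.0054, Map1lc3b 0.022 and Becn1 0.091, and with shTop1 Sqstm1 had -0.056 and Becn1 0.37. Leaving out 1 array, Nbr1 ranged from -0.091 to 0.0058 and Map1lc3b from -0.053 to 0.042, and with shp53 Wipi1 from -0.11 to 0.50 and Becn1 from -0.11 to 0.052.

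The members' median was 0.11 in the mean comparison, and 0.17 with median centring, 0.086 with the average of a gene's probe sets, 0.084 with every probe set by itself, and 0.079 to 0.14 leaving out 1 array. With shTop1 it was 0.15, and 0.22 with median centring and 0.12 to 0.19 leaving out 1 array. With shp53 it was 0.081, and 0.13 with median centring, 0.12 with every probe set by itself and 0.033 to 0.11 leaving out 1 array. For the difference of the effects it was 0.019, and 0.056 with median centring, 0.051 with the authors' scaling alone, 0.058 with the average of a gene's probe sets, and 0.0040 to 0.075 leaving out 1 array. For shTop1 minus shp53 it was 0.033, and 0.10 with median centring, -0.024 with the average of a gene's probe sets (4 of 10 members higher in place of 7), 0.0066 with every probe set by itself, and 0.0080 to 0.041 leaving out 1 array. Leaving out 1 array, 0 to 3 members were higher at an unadjusted p under 0.05 in the mean comparison. Other than where stated, the cause of these shifts was not tested.

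The replicate numbers gave no sign of pairing, with correlations of -0.0067 to 0.051 between groups, and with the replicate block 2 members in place of 3 had an unadjusted p under 0.05 and 0 genes were called. Groups of 2 arrays and signals near 16 limit what can be seen: a difference in the dim probe sets is the least certain. In the mean comparison the SE was 0.42 for Becn1 1430358_at, 0.33 for Map1lc3b 1428024_at, 0.24 for Wipi1 1452392_a_at and 0.18 for Sqstm1 1444021_at.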
